A study of Zea mays with 48 samples.

Results

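The day course of ZmCCA1 binding in the maize inbred Mo17 comprised every row of the Mo17 peak list, which was 2102 of the 10136 ZmCCA1-binding peaks listed for 4 genotypes. No further selection was made here, and no row was left out. The other lists belong to the inbred B73 and to the reciprocal F1 hybrids, BM (B73 x Mo17) and MB (Mo17 x B73). Mo17 aerial tissue was collected 5 days after planting, from plants kept under 16 hours of light and 8 hours of dark. The antibody, labelled ZmCCA1b (GRMZM2G014902), was raised against the MYB DNA-binding domain, and per the study's text it could also bind a ZmCCA1a protein that includes this domain. Chromatin was precipitated with it at ZT3, ZT9 and ZT15, where ZT counts the hours from dawn, so that all 3 time-points fell within the light period. Mo17 contributed 12 of the 48 libraries, 6 ChIP and 6 input, with 2 biological replicates at each time-point.

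Each peak carried a single log2(ChIP/Input) at each time-point, the base 2 logarithm of its ChIP signal over the input, in which 1 stands for a 2-fold enrichment and 0 for none. The 2 replicates were not listed apart. No value therefore has a replicate error, no difference between time-points could be tested, and the reads behind a peak are unknown. The 95% intervals of medians and shares below were exact binomial intervals over peaks. They cover counting over peaks only, and neighbouring peaks are not independent. The list was merged from peaks called at any of the time-points, so a peak called once entered with its values at the others, and large differences between time-points are favoured by that construction. The study's methods also name an analysis of variance of peak enrichment as a criterion for targets. Whether it was applied to this list is not given in the sources used here, and if it was, it bears on every share of peaks by swing or by time-point below.

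CCA1 is a MYB transcription factor at the core of the plant circadian clock, known best from Arabidopsis. There it accumulates around dawn together with its relative LHY and represses genes of the evening, among them GIGANTEA, through short A-rich sites called the evening element and the CCA1-binding site (CBS). In maize, ZmCCA1b carries the MYB DNA-binding domain, and gi1 and gi2 are the homologs of GIGANTEA. Many genes of photosynthesis and carbon metabolism are outputs of this clock.

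The oligonucleotides that the study designed for gi1 and gi2 are shown because both genes held a Mo17 peak that was highest at ZT9. The gi1 binding probe is printed with its CBS in capitals, and the mutated probe with the changed bases in capitals. The primer pairs amplified the ChIP fragments by qPCR. All are written 5′ to 3′, and none was placed on the genome here.
gi1 binding probe: gcatcgcggaAAAAATCTttttctcgcc
gi1 binding probe, mutated: gcatcgcggaaaaaaGAGttttctcgcc
gi1 ChIP-qPCR forward primer: gaacttccatttcagccatcc
gi1 ChIP-qPCR reverse primer: gaaataatcaaggtgacggg
gi2 ChIP-qPCR forward primer: cagtgttgattacaggtgctc
gi2 ChIP-qPCR reverse primer: gattctgacatgcttggtagc

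Binding in Mo17 was highest at midday. The median log2(ChIP/Input) over the 2102 peaks was 1.34 at ZT3 (interval 1.29 to 1.38), 1.68 at ZT9 (1.65 to 1.72) and 1.17 at ZT15 (1.13 to 1.22), and the SD across peaks was 0.78, 0.78 and 0.77. In linear terms the medians were a 2.53-fold, 3.21-fold and 2.24-fold enrichment over input. The median difference was 0.20 for ZT9 minus ZT3 (0.15 to 0.23), -0.34 for ZT15 minus ZT9 (-0.39 to -0.29) and -0.10 for ZT15 minus ZT3 (-0.14 to -0.07). The midday excess, ZT9 minus the mean of ZT3 and ZT15, had a median of 0.22 (0.19 to 0.27) and was above 0 at 1299 peaks (61.8%). It reached 0.5 at 804 peaks (38.2%), beside 31.9% over all lists. These medians were small beside the range among peaks, since ZT9 minus ZT3 ran from -3.06 to 3.24 and its middle 90% of peaks from -1.36 to 1.74. They also rest on the level of the whole ZT9 column. When each time-point was centred on its median over the list, ZT9 minus ZT3 turned to -0.15 and the midday excess to -0.21, and a column-wide difference in precipitation cannot be told apart from a column-wide difference in binding.

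The swing of a peak, its highest minus its lowest value over the day, had a median of 1.04 (1.0 to 1.1), or 2.06-fold. The middle 50% of peaks lay between 0.60 and 1.52, and the extremes were 0.01 and 3.41. A swing of at least 1 was found at 1097 peaks (52.2%), beside 57.3% over the 10136 peaks of all lists, and a swing under 0.5 at 434 (20.6%, beside 13.8%). At 788 peaks (37.5%, beside 35.4%) all values were at least 1. By contrast 276 (13.1%, beside 12.3%) fell below 0 at some time-point, where ChIP signal was under the input.

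**Figure D1:**
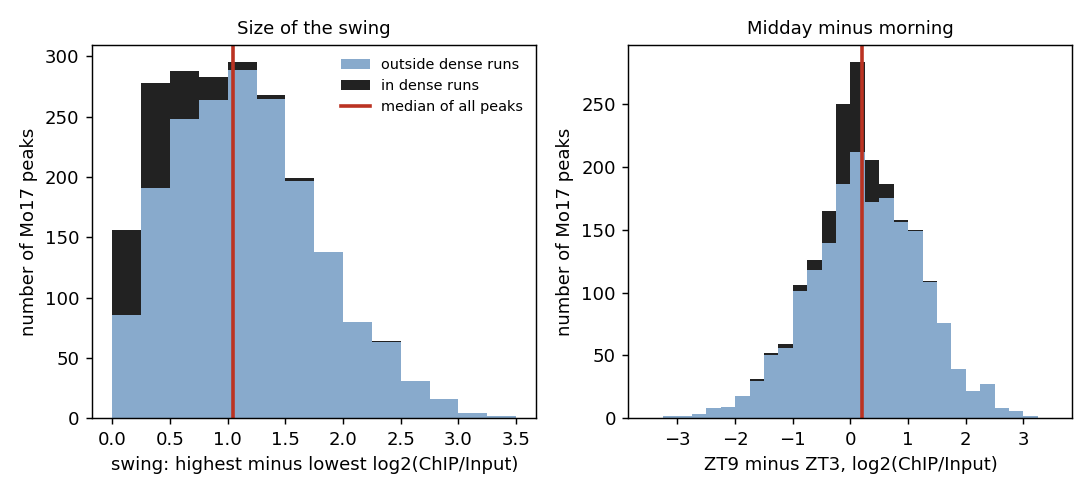
Number of Mo17 peaks by the size of the swing (left) and by ZT9 minus ZT3 (right), both in log2(ChIP/Input) and in bins of 0.25. Pale bars are peaks outside dense runs, black bars are the 228 peaks in dense runs stacked on them, and the line is the median of all peaks (1.04 left, 0.20 right). The black bars pile up at small swings and near 0.

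ZT9 was the highest time-point at 1017 peaks (48.4%), ZT3 at 601 (28.6%) and ZT15 at 483 (23.0%). These shares and the orders below rest on the level of each column, which was highest at ZT9 over the list. They were not counted with centred columns. All orders of the time-points occurred. The most frequent had ZT9 highest and ZT15 lowest, at 560 peaks (26.6%, 24.8% to 28.6%), an order that held for 19.7% of the B73, 22.6% of the BM and 21.1% of the MB list. ZT9 highest and ZT3 lowest followed at 457 (21.7%, 20.0% to 23.6%), beside 18.0%, 8.48% and 13.9% in the same lists. A steady fall from ZT3 to ZT15 was seen at 359 peaks (17.1%, beside 19.1%, 46.9% and 29.5%) and a steady climb at 253 (beside 14.4%, 2.61% and 6.88%). The reverse of the midday pattern, with ZT9 lowest, was split by the highest time-point. It was ZT3 at 242 peaks (11.5%, beside 16.8%, 16.3% and 22.1% in the same lists). It was ZT15 at 230 (10.9%, beside 11.9%, 3.08% and 6.46%). Median swings were 1.08 and 1.18 for the peaks with ZT9 on top and 1.06 for the steady fall. They were 0.84 for the steady climb, and 0.98 and 0.76 for the peaks with ZT9 lowest. A higher ZT9 column widens the swing where ZT9 is on top and narrows it where ZT9 is lowest. No difference in swing between the orders is therefore drawn from these medians.

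With a step of 0.5 as the smallest difference counted, 783 peaks (37.3%) were higher at ZT9 than at ZT3, beside 29.5% over all lists, and 416 (19.8%, beside 32.5%) were higher at ZT3 than at ZT9. From ZT9 to ZT15, 906 peaks (43.1%, beside 42.7%) were lower by that step and 335 (15.9%, beside 16%) were higher. Between the ends of the day, 653 peaks (31.1%, beside 45.5%) were higher at ZT3 and 443 (21.1%, beside 17%) at ZT15. The gap to the whole in the morning step rests on the level of the Mo17 columns. With each Mo17 time-point centred on its median, ZT9 was higher than ZT3 by the step at 25.3% and ZT3 higher than ZT9 at 31.4%, while the other lists were left as deposited. ZT9 led both other time-points by at least 0.5 at 582 peaks (27.7%, beside 22.2%), ZT3 at 290 (13.8%, beside 25.6%) and ZT15 at 204 (9.71%, beside 8.58%). The reverse, ZT9 lowest by the step, applied to 138 peaks (6.57%, beside 7.54%).

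In the values as deposited, a subset of the list barely changed over the day at most of its peaks. Peaks spaced at most 10 kb apart formed 23 dense runs of at least 5 peaks, a grouping chosen after the values were seen. These runs held 228 peaks (10.8% of the list) on 7 chromosomes. Within them the median log2(ChIP/Input) was 2.02 at ZT3, 2.04 at ZT9 and 1.95 at ZT15, with a median swing of 0.36 (0.34 to 0.41) and a median midday excess of 0.03 (-0.0045 to 0.11). Outside the runs the medians were 1.26, 1.65 and 1.11, the swing was 1.13 (1.09 to 1.16) and the midday excess 0.30 (0.23 to 0.36). ZT9 exceeded ZT3 by the step at 15 of the 228 peaks in runs (6.58%) and at 768 of the 1874 outside (41.0%). A swing under 0.5 was found at 157 peaks in runs (68.9%) and at 277 outside (14.8%), so flat peaks were not confined to the runs. A swing of at least 1 was found at 12 peaks in runs (5.26%) and at 1085 outside (57.9%). The midday maximum of the deposited values thus lay in the peaks outside the runs. The flatness of the runs depends on the level of the Mo17 columns, which were not centred for it. Over the whole list the column medians were 1.34, 1.68 and 1.17.

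**Figure D2:**
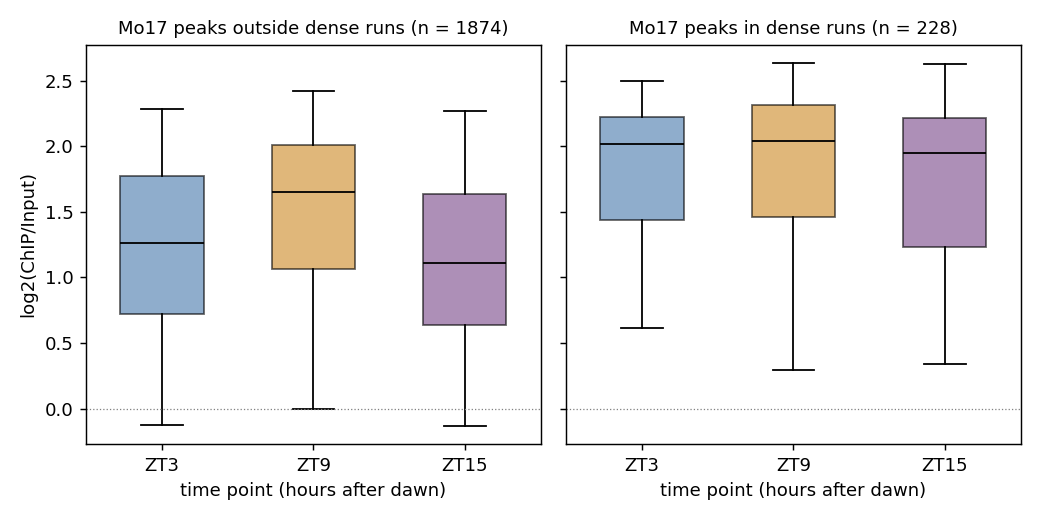
Log2(ChIP/Input) of Mo17 peaks at ZT3, ZT9 and ZT15, outside the dense runs (left, 1874 peaks) and in them (right, 228 peaks). The line in a box is the median, the box spans the middle 50% of peaks and the whiskers the middle 90%. Medians outside the runs were 1.26, 1.65 and 1.11, and in the runs 2.02, 2.04 and 1.95.

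The levels at different time-points also went together much more closely in the runs. Across the 228 peaks in runs, Pearson's r between time-points was 0.87 for ZT3 and ZT9, 0.85 for ZT9 and ZT15 and 0.87 for ZT3 and ZT15, whereas across the 1874 peaks outside it was 0.20, 0.21 and 0.28 in the same order. These correlations are a description across peaks of the same libraries. Peaks of a run are neighbours and not independent.

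The largest run lay on chromosome 9, at chr9:72775887-72945613 in the coordinates of the file, with 45 peaks and 22 assigned genes. Its medians were 2.11, 2.22 and 1.98 at ZT3, ZT9 and ZT15. The next, with 22 peaks, lay at chr1:234569768-234670090, with medians of 2.20, 2.31 and 2.13 and a median swing of 0.25. Chromosome 9 alone held 8 runs and 91 of their peaks, out of 252 peaks on that chromosome. Its peaks had medians of 1.70, 1.90 and 1.58 as a whole, but 1.21, 1.63 and 1.18 outside the runs, where the other chromosomes stood at 1.27, 1.65 and 1.10.

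Not every run was strongly bound. A run of 14 peaks at chr4:172378468-172424820 had medians of 0.68, 0.44 and 0.54, and a run of 9 peaks with no assigned gene at chr1:234505641-234533926 had 0.62, 0.60 and 0.59. The median swing was under 0.5 in 20 of the 23 runs. The clearest exception was a run of 5 peaks at chr2:153927850-153949522, whose medians of 1.52, 1.49 and 0.74 gave a median swing of 1.32. Every other list also held dense runs, 20 in B73 (197 peaks), 20 in BM (182) and 17 in MB (157), and 172 of the 228 Mo17 peaks in runs overlapped a peak of all 3 other lists. The runs were less flat there in the values as deposited. A column-wide level in each list enters this contrast, and the columns were not centred for it. Over all peaks the medians at ZT3, ZT9 and ZT15 were 1.48, 1.56 and 1.33 in B73. They were 1.79, 1.44 and 0.82 in BM and 1.52, 1.44 and 0.95 in MB. In the runs the medians at these time-points were 1.87, 1.65 and 1.66 in B73, 1.97, 1.59 and 1.21 in BM and 2.00, 1.53 and 1.60 in MB. The median swings of the runs were 0.47, 0.72 and 0.54, and their median ZT9 minus ZT3 was -0.20, -0.38 and -0.46, beside 0.01 in Mo17.

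**Figure D3:**
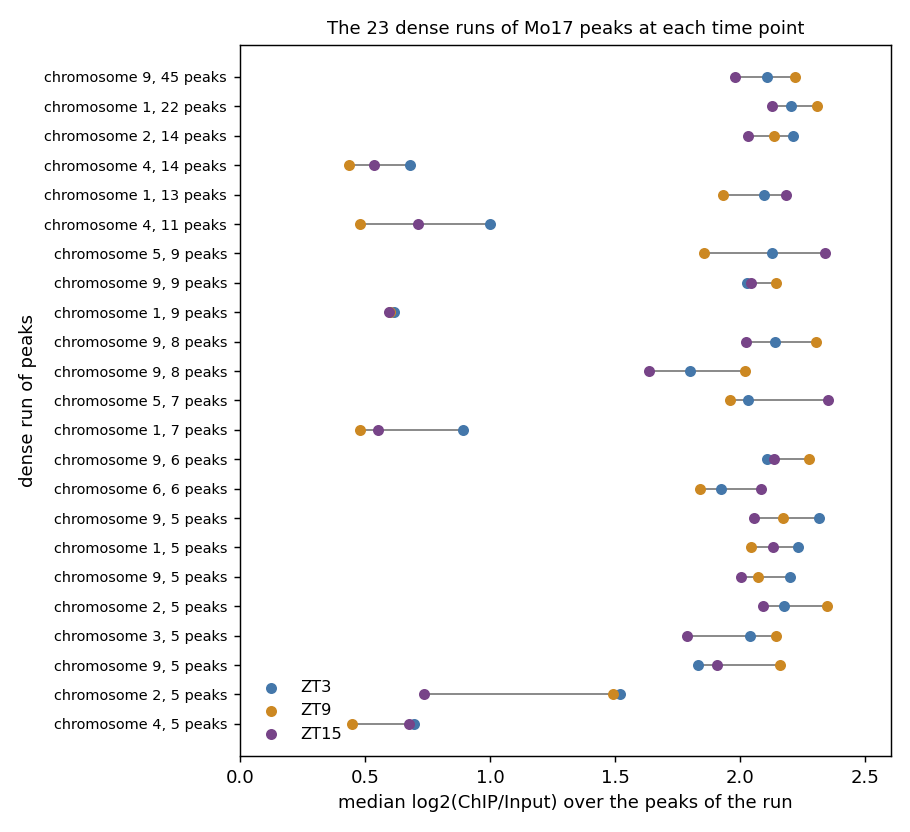
Median log2(ChIP/Input) over the peaks of each of the 23 dense runs of Mo17 peaks at ZT3, ZT9 and ZT15, with the runs ordered by their number of peaks. The run medians spanned 0.44 to 2.35, and most runs showed nearly the same level at all time-points.

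Peaks also differed by where they lay. Of the list, 1373 peaks (65.3%) lay inside their assigned gene, and these had the clearest midday pattern, with medians of 1.31, 1.69 and 1.10 and a midday excess of 0.40. The 319 peaks (15.2%) without a gene had lower and flat medians of 0.88, 0.89 and 0.84, with a midday excess of -0.13, and 34.2% of them fell below 0 at some time-point. Singly they were not flat, with a median swing of 0.98, beside 1.04 in the list. A swing of at least 1 was reached by 48.9% of them, beside 52.2%. Peaks within 2 kb upstream of the gene start (93) had medians of 1.84, 1.85 and 1.69, and the 222 peaks from 2 to 10 kb upstream 1.86, 1.91 and 1.68. The 68 peaks over a gene start were highest at ZT9 in 54.4% of cases, beside 52.9% of peaks inside genes and 48.4% of the list, with medians of 1.57, 1.96 and 1.73.

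Narrow peaks swung more than wide ones. The median swing fell from 1.35 (1.25 to 1.45) in the narrowest 25% of the list, with a median width of 593 bp, to 0.73 (0.65 to 0.78) in the widest 25%, with a median width of 1665 bp. Values below 0 were found at 21.7% of the narrowest peaks and 4.18% of the widest. The lowest of the 3 values, which is itself part of the swing, had a median of 0.65 in the narrowest 25% and 1.01 in the widest. The levels at ZT3 and ZT9 did not rise with width, with medians of 1.60 and 1.795 in the narrowest 25% and 1.41 and 1.77 in the widest. The parts of level and width in the swing were not tested.

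The swing was largest at peaks found in Mo17 alone. The 829 Mo17 peaks (39.4% of the list) that overlapped no peak of another list had medians of 0.96, 1.46 and 0.90. Their swing was 1.39, and 75.4% of them reached a swing of 1, beside 52.2% of the list. The 474 that overlapped a peak in all 3 other lists had medians of 1.89, 1.99 and 1.91 and a swing of 0.43. Leaving out the runs, the medians of these classes were 1.4 (819 peaks) and 0.53 (302 peaks). ZT9 minus ZT3 was 0.40 at the peaks found in Mo17 alone and 0.06 at those shared by all. Peaks found only in B73, only in BM or only in MB were not examined, so none of this is shown to be particular to Mo17.

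GIGANTEA genes, which act in the evening phase of the clock, carried midday peaks. The gi2 peak (GRMZM5G844173, chr3:9304738-9306349, inside the gene on the plus strand) had 0.17 at ZT3, 2.54 at ZT9 and 0.33 at ZT15, so that only ZT9 stood clear of the input. ZT9 was 5.15-fold above ZT3 there, rank 29 of the 2102 peaks for this difference and rank 20 for the midday excess (2.29). The gi1 peak (GRMZM2G107101, chr8:21102387-21106200, inside the gene on the minus strand) had 0.76, 1.68 and 0.22, a midday excess of 1.19 and a rise of 1.89-fold from ZT3 to ZT9. Neither peak overlapped a B73 or an MB peak, and both overlapped a BM peak. The MB list did assign 1 peak to gi2, apart from the Mo17 peak, and the BM list assigned 2 peaks to each gene. The BM values here are those of the peak with the largest overlap. That at gi2 was likewise highest at ZT9, with 0.84, 1.99 and 0.63, whereas that at gi1 was highest at ZT3, with 1.85, 1.71 and 0.93.

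GRMZM2G175265, a MYB-domain homolog of CCA1 upstream of ZmCCA1a, followed another course. Its peak (chr10:78343782-78344336, inside the gene) had 1.34 at ZT3, -0.09 at ZT9 and -1.05 at ZT15, a 5.25-fold fall over the day, and overlapped no peak of the other lists. The ratio was under the input at ZT9 and ZT15. ZmCCA1a (GRMZM2G474769), ZmCCA1b, ZmPRR59 (GRMZM2G135446) and ZmTOC1a (GRMZM2G020081) had 0 Mo17 peaks. RefSeq places GRMZM2G175265 and GRMZM2G474769 in a single gene. In all, 7 of the 18 genes that the study named or gave primers for held a Mo17 peak.

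**Figure D4:**
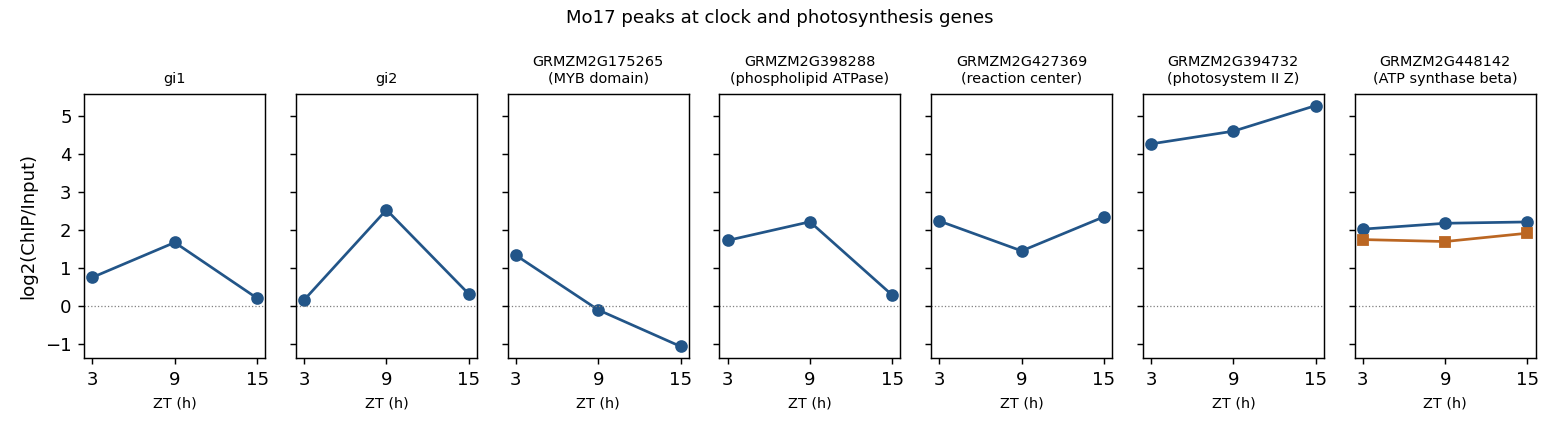
Log2(ChIP/Input) against ZT in hours for the Mo17 peaks of the 7 such genes, with a line for each peak and the dotted line at 0. gi1, gi2 and GRMZM2G398288 were highest at ZT9, GRMZM2G175265 fell throughout, and the 3 genes for photosynthetic proteins showed no maximum at ZT9.

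Among the genes tied to carbon fixation and photosynthesis, GRMZM2G398288, which encodes a putative phospholipid-transporting ATPase, followed the midday pattern. Its peak (chr9:131377953-131378896) had 1.73, 2.22 and 0.30 and a midday excess of 1.21. The 3 genes for photosynthetic proteins did not. GRMZM2G394732, for photosystem II reaction center protein Z, had 4.27, 4.60 and 5.27 (chr5:209992552-209993810), which made it the second-highest peak of the list at ZT15. GRMZM2G427369, for a photosynthetic reaction center protein, had 2.24, 1.46 and 2.35 (chr5:209966474-209967165). GRMZM2G448142, for the ATP synthase beta subunit, had 2.03, 2.18 and 2.22 at a peak inside the gene and 1.75, 1.70 and 1.92 at a peak upstream of it.

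All 4 of these peaks lay in dense runs, of 9, 7 and 13 peaks respectively, and the 2 runs on chromosome 5 were neighbours. In land plants photosystem II protein Z and the ATP synthase beta subunit are products of the plastid genome, and plant chromosomes carry inserted copies of plastid DNA. The runs were not compared with plastid sequence here, and the part of such copies in their values was not tested. The run with GRMZM2G394732 had medians of 2.13, 1.85 and 2.34, and that with GRMZM2G427369 had 2.03, 1.96 and 2.35, so that in both the level was highest at ZT15.

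The highest peak of all had no assigned gene. It lay at chr1:62370845-62371897 with 7.08 at ZT3, 6.94 at ZT9 and 5.78 at ZT15, a 136-fold enrichment over input at ZT3. Next came peaks upstream of GRMZM2G066485 (chr6:138678780-138680139) with 5.54, 5.33 and 4.13, of GRMZM2G168077 (chr8:166826527-166828573) with 5.28, 5.17 and 3.92, and of GRMZM2G020929 (chr6:140854235-140855383) with 4.99, 5.27 and 3.93. Each of the 3 lay 2 to 10 kb from its gene and was lowest at ZT15, with swings of 1.41, 1.36 and 1.34. B73 had a peak at each of these places, with 5.53, 5.47 and 5.27 at ZT3. GRMZM2G117134 (chr7:18053531-18053903) with 3.59, 3.64 and 3.41 and GRMZM2G015024 (chr2:64997331-64998853) with 3.32, 3.64 and 3.86 were flatter.

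Among peaks with an assigned gene, those with the largest ZT9 minus ZT3 were depleted at ZT3. GRMZM2G332368 (chr1:246816738-246817407, over the gene start) had -0.67, 2.39 and 0.91, and GRMZM2G101408 (chr2:17797774-17798434) had -0.66, 2.25 and 1.57, so that ZT9 was 8.34-fold and 7.50-fold above ZT3. GRMZM2G074479 had -0.50, 2.31 and 1.42 (and 1.18, 1.01 and 1.66 at its other peak), GRMZM5G880508 -0.54, 2.26 and -0.21, and GRMZM2G128454 -0.34, 2.35 and 0.44. GRMZM5G880508 also had the largest midday excess of any peak with a gene (2.64), followed by GRMZM2G093623 (0.46, 2.65 and -0.16) GRMZM2G030009 (-0.40, 2.01 and -0.58), GRMZM2G020553 (-0.46, 2.15 and -0.13) and GRMZM2G070381 (-0.21, 2.27 and -0.06). At these, binding stood above the input at midday and near or below it at the other time-points.

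The opposite course was as steep, again among peaks with a gene. GRMZM2G439049 (chr1:10386517-10386872) had 2.59, -0.48 and 1.03, an 8.35-fold fall from ZT3 to ZT9, and GRMZM2G405830 (chr1:174252462-174252913) had 2.28, -0.75 and 0.00. GRMZM2G462062 had 2.02, -0.89 and 1.11, GRMZM2G161222 2.76, 0.04 and 0.40, and GRMZM2G079257 2.94, 0.39 and 1.24. All 5 were narrow, with widths of 355 to 581 bp against a median of 980 bp in the list. The 5 peaks with the largest ZT9 minus ZT3 were narrow too, at 438 to 669 bp.

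Among peaks with an assigned gene, the largest lead at ZT15 was that of GRMZM2G115265 (rank 6 over all peaks, chr3:71403186-71403806, within 2 kb upstream) with -0.0033, -0.74 and 1.98, a lead of 3.95-fold at ZT15 over the next time-point. GRMZM2G104553 had 0.21, 0.19 and 2.16, GRMZM5G867518 -0.46, -0.18 and 1.75, GRMZM2G153611 0.38, -0.28 and 2.23, and GRMZM2G479325 -0.46, 0.05 and 1.81. At the other extreme, GRMZM2G121624, in the run of 22 peaks on chromosome 1, had 2.35, 2.35 and 2.34, the smallest swing of the list (0.01). GRMZM2G104572 (2.68, 2.72 and 2.72), GRMZM2G448868 (2.25, 2.27 and 2.24), GRMZM2G038874 (2.05, 2.06 and 2.02) and GRMZM5G872710 (2.03, 2.04 and 2.01) were almost as flat at a high level.

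The list assigned 1783 peaks to 1522 target genes, of which 1312 had 1 peak, 168 had 2, 34 had 3, 7 had 4 and GRMZM2G072938 had 5. Among the 210 genes with several peaks, all peaks of the gene shared their highest time-point in 99 (47.1%, 40.2% to 54.1%). That time-point was ZT9 in 58, ZT3 in 22 and ZT15 in 19. Over all peaks of the list ZT9 was highest at 48.4%, ZT3 at 28.6% and ZT15 at 23.0%. Leaving out the runs, all peaks of the gene shared their highest time-point in 75 of 155 genes (48.4%). In the 168 genes with 2 peaks, ZT9 minus ZT3 had the same sign at both peaks in 105, with Pearson's r of 0.23 across genes. Over the list it was above 0 at 60.4% of peaks. Peaks of different genes were not paired for comparison, so agreement within genes beyond these shares was not tested.

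GRMZM2G072938 and 4 of the 7 genes with 4 peaks lay in runs. The other 3, GRMZM2G159992, GRMZM2G305685 and GRMZM2G350284, lay outside them and are named after their values were seen. The 5 peaks of GRMZM2G072938 on chromosome 2 ran from 1.92 to 2.5 at ZT3, from 1.75 to 2.72 at ZT9 and from 1.81 to 2.29 at ZT15, so that the time-points overlapped. GRMZM2G109848, in the largest run, had 4 peaks between 2.07 and 2.29 at ZT3, between 1.81 and 2.64 at ZT9 and between 2.00 and 2.27 at ZT15. All 4 were thus bound at every time-point. The 4 peaks each of GRMZM2G469489, GRMZM2G525229 and GRMZM2G110865 also lay between 1.35 and 2.5 at every time-point.

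In 17 genes, all outside the runs, peaks moved by at least 0.5 in opposite directions from ZT3 to ZT9. GRMZM2G157316 had 0.27, 1.84 and 1.54 at a peak inside the gene and 1.14, -0.54 and -1.15 at a peak upstream. GRMZM2G446625 had 0.79, 2.09 and -0.68 at a peak and 2.01, 0.74 and 2.13 at another, both inside the gene. GRMZM2G113093 had 0.38, 1.76 and 1.54 and, at its other peak, 1.17, -0.08 and 2.05. Hds1 (GRMZM2G137409), an enzyme of the plastid isoprenoid pathway, had 2.18, 1.20 and 0.03 and, in a neighbouring peak, 0.51, 2.04 and 1.73.

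RefSeq gave 880 of the 1522 target genes an entry, and 63 of these, with 73 peaks, had a name that placed them in a functional group. Over all 73 peaks the medians were 1.36, 1.69 and 1.08, close to those of the list. ZT9 was above ZT3 by the step at 36 of them (49.3%, beside 37.3% in the list), and the median ZT9 minus ZT3 was 0.49, beside 0.20. None of the 73 peaks lay in a run, and all had a gene. The list shares set beside them here and below include peaks in runs and peaks without a gene. Over the peaks outside the runs, ZT9 was above ZT3 by the step at 41.0%, with a median ZT9 minus ZT3 of 0.26. ZT9 was highest at 49.6% of the peaks outside the runs and at 52.9% of those inside genes. The groups were formed after the files were opened and are small, so nothing particular to a group is drawn from them.

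Genes of plastid metabolism and import had medians of 1.14, 1.94 and 1.17 over 12 peaks, and 9 of the 12 were highest at ZT9, beside 48.4% in the list. PYG7, needed for photosystem I assembly in Arabidopsis, had 0.34, 2.33 and 1.55. fdx2, a ferredoxin, had -0.18, 1.92 and 1.68, and dxr, of the plastid isoprenoid pathway, had 0.60, 1.74 and 1.17. ftr1, for ferredoxin-thioredoxin reductase, was highest at ZT9 at both of its peaks, with 1.14, 2.22 and 1.18 and with 1.36, 2.15 and 1.75. The fatty acid desaturase gene fad6 ran the other way, with 2.31, 0.83 and 1.58. In the 6 peaks at factors of plastid RNA processing, crs1 (0.87, 1.91 and 0.95) and crp1 (1.24, 1.82 and 0.78) were highest at ZT9, while the 3 peaks of CRS2 were highest at 3 different time-points.

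Kinases and small GTPases had medians of 1.23, 1.69 and 0.89 over 15 peaks, with ZT9 highest at 11 (73.3%, beside 48.4%). MIK had 1.23, 2.93 and 1.25 at the stronger of its peaks and 1.52, 2.34 and 1.68 at the other. The calcium-dependent protein kinase gene CPK21 had 1.48, 2.34 and 0.71, and yptm2, of the Rab type, 1.32, 2.29 and 1.40. mpk6, a mitogen-activated protein kinase gene, was highest at ZT3, with 2.20, 1.09 and 1.01.

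Of the 6 peaks at chromatin genes, 5 were highest at ZT3 (83.3%, beside 28.6%) and 0 were higher at ZT9 than at ZT3 by the step (beside 37.3%). The histone deacetylase gene Hda1 had 1.74, -0.44 and 0.11, set105 had 1.97, 0.30 and 0.93, and brahma1, a chromatin-remodelling ATPase gene, had 1.58, 1.42 and 0.68. mbd105 was the exception, with 1.79, 1.91 and 0.64. The group medians were 1.83, 1.32 and 0.80.

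Of the 16 peaks at transcription factor genes, 9 were highest at ZT9 (beside 48.4%), with group medians of 1.36, 1.75 and 1.09. The homeobox genes hox3 (1.27, 2.20 and 0.77) and Hox2b (1.35, 2.23 and 1.0) had alike courses. NAC12 climbed through the day with 0.48, 1.21 and 1.89, and MYB-IF35 was bound at ZT3 with 1.64, -0.18 and -0.09. The Mediator complex links such factors to RNA polymerase II. Of its 4 genes, Med12b (1.19, 2.22 and 0.65) and Med12a (1.58, 1.90 and 1.42) were highest at ZT9, and MED26.18 (-0.91, 0.48 and 1.96) and the cyclin-C gene (0.98, 0.74 and 2.13) at ZT15.

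The remaining groups were mixed. Of 6 peaks at splicing genes 4 were highest at ZT9 (66.7%, beside 48.4%), among them RSZ28 with 0.43, 2.07 and 0.80, while ZMU170K 1, for a protein of the U1 particle, had 2.25, 1.15 and 1.09. Of 8 peaks at genes of translation and protein turnover, 3 were highest at ZT3, 2 at ZT9 and 3 at ZT15. The ubiquitin gene GRMZM2G409726 had 2.32, 0.32 and 0.17, dek1, a calpain-type protease gene, had 1.45, 2.72 and 1.59, and Cullin-1 had 1.0, 1.25 and 2.26.

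**Figure D5:**
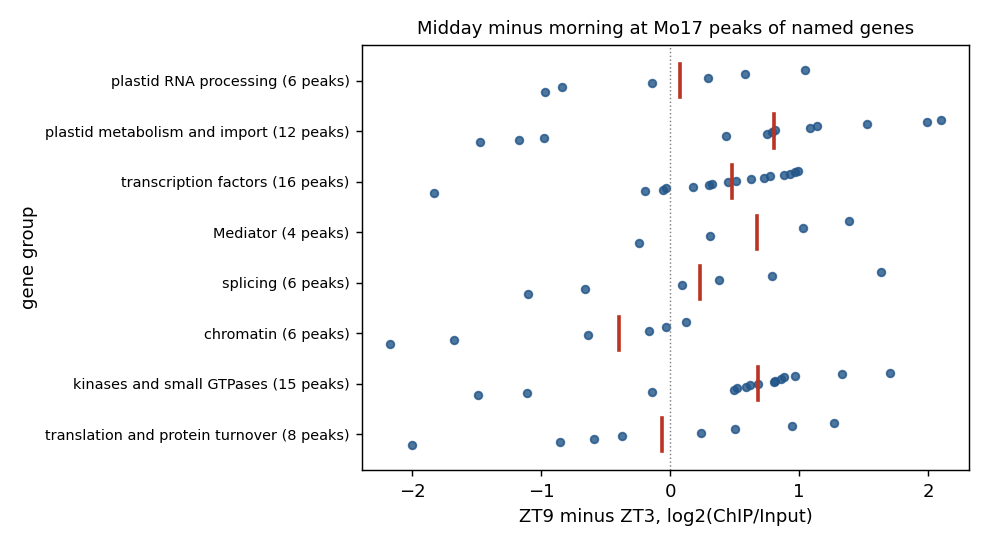
ZT9 minus ZT3 in log2(ChIP/Input) for each Mo17 peak of a gene named in RefSeq, by gene group, with a point for each peak and a bar at the group median. The medians ran from -0.40 for chromatin to 0.80 for plastid metabolism and import, and most groups held peaks on both sides of 0.

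As context, 950 Mo17 peaks (45.2%) overlapped a B73 peak. At these places the medians in Mo17 were 1.66, 1.84 and 1.48, and in B73 1.76, 1.73 and 1.60. ZT9 minus ZT3 was higher in Mo17 at 585 of the 950 (61.6%), with medians of 0.09 in Mo17 and -0.06 in B73, and the midday excess at 629 (66.2%). The levels of the inbreds went together across these peaks, with Pearson's r of 0.58 to 0.64 at a time-point, whereas for ZT9 minus ZT3 it was 0.08. At the places shared with BM, ZT9 minus ZT3 was higher in Mo17 at 660 of 885 peaks (74.6%), and with MB at 537 of 724 (74.2%). A column-wide level in either list enters all of these differences, and their significance could not be tested without replicate values.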

How the data were processed

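Reads of Mo17 ChIP and input libraries were, per the study's methods, trimmed, aligned with Bowtie to a Mo17 assembly guided by the B73 genome (AGPv2), kept where mapped concordantly and uniquely, cleared of duplicates and down-sampled to equal depth. MACS2 2.0.1 called peaks against input at p 0.001, peaks present in both replicates were kept, and the time-points were merged. The values deposited by the authors are log2(ChIP/Input), 1 for each peak and time-point; how replicates were combined is not given in the sources used here. They were used as deposited, with positions and assigned genes (within 10 kb, gene models of release 5b.60) as the file gives them. Down-sampling equalises reads but not the efficiency of precipitation.

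Differences, swings, medians and shares were computed with exact 95% binomial intervals, without any test. Peaks overlapped when sharing at least 1 bp. Functions were checked on simulated lists. Members and lists were chosen with earlier results of these data known. The genes named were those the study names or gives primers for, and further ones among peaks with an assigned gene. These were the 5 highest peaks at each time-point and the 5 largest and 5 most negative ZT9 minus ZT3. The 5 largest midday excesses, the 5 largest leads of ZT15 and the 5 flattest peaks with all values of at least 2 were also taken. So were the 5 genes with most peaks and the 5 whose peaks differ most in ZT9 minus ZT3. Of the 13 keyword lists planned, 0 could be run, since the RefSeq table (Zm-B73-REFERENCE-NAM-5.0, used for names only) has no descriptions. The 8 symbol groups were built from it after the files were opened, and the dense runs were added after the data were seen. Motifs were not searched. Python 3.11.15, numpy 2.4.6, pandas 2.3.3, scipy 1.17.1 and matplotlib 3.10.9 were used.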

Additional observations from a re-analysis of the deposited data

Results flagged for a closer look

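In the values as deposited, the median of ZT9 minus ZT3 lay on opposite sides of 0 in the inbred and the hybrid lists. It was 0.20 over the 2102 Mo17 peaks and 0.0525 over the 3364 B73 peaks, against -0.40 over the 2796 BM peaks and -0.25 over the 1874 MB peaks. The sign in Mo17 rests on the level of its columns. Centring each Mo17 time-point on its median turned 0.20 to -0.15, and centring on its mean to -0.0375. At the 950 places that Mo17 shared with B73, the B73 median was -0.06, and at the 751 of them outside the dense runs it was 0.02. The lists hold different peaks and have no replicate values, so the difference between inbred and hybrid lists was not tested.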

How the results depend on the processing

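The median ZT9 minus ZT3, ZT15 minus ZT9 and midday excess kept their direction under every choice of peaks listed below. They turned in some groups of peaks outside those choices. At the 319 peaks without a gene, the medians were -0.08 (interval -0.18 to 0.0052), 0.06 and -0.13 in the same order. At the 92 peaks whose highest value was below 1, they were -0.28, 0.06 and -0.15. Centring on the median turned ZT9 minus ZT3 to -0.15, ZT15 minus ZT9 to 0.18, ZT15 minus ZT3 to 0.0719 and the midday excess to -0.21, with a swing of 0.96 and shares of 25.3% (ZT9 above ZT3), 31.4% (ZT3 above ZT9), 22.3% (midday excess) and 46.8% (swing of at least 1). Centring on the mean gave, in the same order, -0.0375, -0.00375, 0.0016 and -0.0589, a swing of 0.97 and shares of 28.8%, 27.0%, 27.0% and 48.1%. Of 139 named peaks, ZT9 minus ZT3 kept its side of the step of 0.5 at 111 with the former and 126 with the latter.

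Values of ZT9 minus ZT3, ZT15 minus ZT9, midday excess and swing, then the shares in the order above, were as follows. Peaks overlapping a B73 peak gave 0.0901, -0.23, 0.15, 0.70, 26.4%, 14.2%, 29.5% and 32.0%. A reciprocal overlap of 50% gave 0.0842, -0.17, 0.11, 0.61, 23.4%, 12.5%, 25.2% and 24.7%, with ZT15 minus ZT3 at -0.0400. Peaks overlapping no other list gave 0.40, -0.52, 0.36, 1.39, 47.4%, 26.5%, 46.1% and 75.4%, with 60% of 20 genes sharing a top time-point. Leaving out the dense runs, chosen after seeing the data, gave 0.26, -0.42, 0.30, 1.13, 41.0%, 21.2%, 42.1% and 57.9%. Peaks reaching 1.5 gave 0.24, -0.42, 0.30, 1.08, 40.0%, 18.6%, 41.4% and 54.7%. Peaks reaching 2 gave 0.23, -0.40, 0.23, 1.09, 40.0%, 17.9%, 40.3% and 54.5%. A value per gene gave 0.28, -0.44, 0.34, 1.07, 40.4%, 17.9%, 42.6% and 54.3%. Peaks with a gene gave 0.23, -0.42, 0.30, 1.05, 38.8%, 18.1%, 40.8% and 52.8%. Without peaks wider than 2000 bp the swing was 1.09 and 55.2% reached 1.

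Raising each threshold by 0.5 gave shares of 20.9%, 8.75%, 20.3% and 25.4%, and lowering it by 0.25 gave 47.0%, 27.6%, 48.6% and 65.7%. No paired analysis was possible because the columns carry no replicate values, and leaving out a replicate could not be run for the same reason. The depth behind a peak is unknown.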
